A study of Mus musculus with 95 samples.

Results

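The genes described here encode the families of enzymes that modify and clear foreign compounds in mouse lung. Members were the probe sets that the platform annotation pairs with 1 gene whose symbol begins with Cyp and a digit, Gsta, Gstm, Gstp, Gstt, Gsto, Gstz, Gstk, Fmo, Ugt, Sult, Aldh, or Pon and a digit. Fibromodulin, Fmod, whose symbol shares the letters Fmo, is no flavin monooxygenase, and its 2 probe sets were left out. This left 106 of 12487 probe sets, for 82 of 8252 genes. They comprised 40 cytochrome P450 genes, 15 glutathione transferases, 10 aldehyde dehydrogenases, 9 sulfotransferases, 3 paraoxonases, 3 glucuronosyltransferases and 2 flavin monooxygenases. All 82 genes were tested, with no filter on low values.

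Cytochrome P450 enzymes and flavin monooxygenases oxidise lipophilic compounds, and aldehyde dehydrogenases turn reactive aldehydes into acids. Glutathione transferases, sulfotransferases and glucuronosyltransferases then attach a polar group, and paraoxonases hydrolyse lactones and organophosphates. In mouse lung much of this activity resides in club cells of the airways, with Cyp2f2 as their best known P450. Cyp1a1 is the classical target of the aryl hydrocarbon receptor, which binds the core GCGTG together with its partner Arnt. Many glutathione transferase genes are targets of Nfe2l2, which binds antioxidant response elements with the core TGACNNNGC.

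The study profiled whole lung homogenates on Affymetrix arrays, 1 array per mouse, with 60 arrays from mice housed with a cage mate carrying Pneumocystis murina, a lung fungus, and 35 from unexposed mice. The labels give all mice as females of 8 weeks. C57BL/6 mice were sampled after exposure for 7 days (8 exposed and 4 unexposed), 14 days (8 and 6), 21 days (6 and 5), 32 days (3 and 2), 34 days (10 and 5), 41 days (10 and 5) and 75 days (3 exposed). Mice without CD40 ligand (CD40L-KO), which fail to give B cells and macrophages T cell help through CD40, were sampled at 32 days (3 exposed and 3 unexposed), 35 days (4 exposed), 39 days (2 exposed) and 75 days (3 exposed), with 5 unexposed mice labelled day 14. Those 5 were taken as the 5 unexposed controls that the design gives for day 35 in experiment 4, an assumption on which each day 35 difference rests, since their labels say day 14. Day 32 formed experiment 1, days 34 and 41 experiment 2, and days 7 to 21 experiment 3, and no experiment is stated for days 39 and 75. In experiments 1 to 3 a cage was either exposed or unexposed. Samples are not matched to cages in the labels, so effects of the cage and of exposure cannot be separated, and mice entered the tests as independent.

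Levels are log2(intensity + 8), with a floor of 3 where the intensity is 0, and 25 members averaged under 4. The offset compresses differences of dim genes. Differences are exposed minus unexposed means with their standard error (SE). A gene is called when its adjusted p from limma, over all 8252 genes, is under 0.05. In whole lung, fewer cells of a type and less RNA per cell cannot be told apart.

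Lung markers were high on all 95 arrays, with Sftpc from 12.38 to 14.59 and Scgb1a1 from 12.18 to 14.31, while the liver product Alb lay between 3.4 and 5.47. Cd40lg itself lay between 3.05 and 3.75 in both strains and does not check the strain labels. The mean level of 13 squamous epithelium genes, mostly keratins, was 6.39 or higher on 16 arrays and 5.08 or lower on the remaining 79. Skeletal muscle transcripts moved with it, with medians of 7.69 and 4.68. The 16 arrays included 4 of 5 unexposed and 3 of 10 exposed C57BL/6 mice of day 34, and 2 of 3 unexposed and 1 of 3 exposed CD40L-KO mice of day 32. The Y-linked Eif2s3y exceeded Xist on 17 arrays, which were those of days 39 and 75 and of experiment 4, although the labels say female.

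Promoters of Cyp1a1, Gsta2, Gsta3 and Pon1 are shown because these genes were among those lower after exposure. The RefSeq table of assembly GRCm38.p6 gave promoters, each 250 bases before to 50 after a start site, for 65 of the 82 members. Capitals mark GCGTG or TGACNNNGC on either strand, which do not overlap in these sequences. The windows are chr9:57697363-57697662 on the plus strand for Cyp1a1, chr9:78347096-78347395 on the minus strand for Gsta2, chr1:21240335-21240634 on the plus strand for Gsta3 and chr6:5193897-5194196 on the minus strand for Pon1.
Cyp1a1: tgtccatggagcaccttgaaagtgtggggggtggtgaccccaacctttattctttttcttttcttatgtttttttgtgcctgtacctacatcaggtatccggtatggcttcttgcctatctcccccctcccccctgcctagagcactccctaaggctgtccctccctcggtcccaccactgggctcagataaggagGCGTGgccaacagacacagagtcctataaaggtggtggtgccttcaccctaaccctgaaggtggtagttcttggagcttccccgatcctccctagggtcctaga
Gsta2: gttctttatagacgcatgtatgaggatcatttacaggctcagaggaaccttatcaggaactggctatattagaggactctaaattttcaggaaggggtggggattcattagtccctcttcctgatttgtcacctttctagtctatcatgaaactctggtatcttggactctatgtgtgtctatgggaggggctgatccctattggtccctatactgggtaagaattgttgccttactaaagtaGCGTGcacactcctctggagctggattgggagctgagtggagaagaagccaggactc
Gsta3: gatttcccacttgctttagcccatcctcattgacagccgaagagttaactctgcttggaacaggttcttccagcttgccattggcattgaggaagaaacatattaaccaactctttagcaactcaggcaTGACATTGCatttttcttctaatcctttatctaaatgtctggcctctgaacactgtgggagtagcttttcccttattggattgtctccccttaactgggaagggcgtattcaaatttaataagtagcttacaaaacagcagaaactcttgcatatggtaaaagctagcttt
Pon1: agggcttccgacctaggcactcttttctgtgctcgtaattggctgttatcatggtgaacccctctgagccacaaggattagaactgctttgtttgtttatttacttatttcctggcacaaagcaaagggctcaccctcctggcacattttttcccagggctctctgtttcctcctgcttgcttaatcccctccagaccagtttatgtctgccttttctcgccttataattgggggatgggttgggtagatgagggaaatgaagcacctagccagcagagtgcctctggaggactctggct
Cyp1a1 and Gsta2 each held 1 GCGTG, Gsta3 held 1 TGACNNNGC and the Pon1 window held neither. GCGTG was in 21 of 75 member promoters, 28.0%, and in 32.4% of all 32851 promoters. TGACNNNGC was in 8 of 75 member promoters, 10.7%, and in 12.4% of all. These matches describe letters in short windows and were not tied to binding.

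After 32 days of exposure, Pon1 was lower in C57BL/6 lung, and no other member passed the test with 3 exposed and 2 unexposed mice. Pon1, a lactonase carried on high-density lipoprotein, had levels of 8.17 and 8.34 in the unexposed mice and of 4.65, 6.61 and 5.14 in the exposed mice. Every exposed mouse lay below both unexposed mice. The difference was -2.79 (SE 0.46, limma adjusted p = 0.0211), a 6.9-fold lower level. Pon1 was the 1 member called, with 1.65% of all genes called in this comparison and 0.303% called lower. Its relatives Pon2 and Pon3 differed by -0.13 (SE 0.21) and 0.23 (SE 0.19), neither of which passed.

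Several members that missed the threshold at day 32 had groups that did not overlap. Such separation is easily reached with 3 exposed and 2 unexposed mice, and it was not counted over all genes. Sult1d1, a sulfotransferase, had 5.61 and 5.47 in unexposed and 3.55, 4.34 and 3.26 in exposed mice, a difference of -1.83 (SE 0.40, limma adjusted p = 0.0523). Cyp2f2, the club cell P450, had 11.39 and 11.45 against 9.56, 11.01 and 9.99, a difference of -1.23 (SE 0.34, limma adjusted p = 0.102). Fmo1, a flavin monooxygenase, had 9.78 and 9.89 against 8.61, 9.47 and 8.77. The mitochondrial aldehyde dehydrogenase Aldh2 had 9.98 and 10.06 against 8.87, 9.68 and 9.01. In each of these genes exposed mouse 2 stood nearest to the unexposed mice.

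The order of the exposed mice was counted over the 32 brighter members. Of the 32 members brighter than the median gene, exposed mouse 2 had the highest level of the 3 exposed mice in 27. Relative to the mean of the unexposed mice, the median difference over these 32 was -1.0 in mouse 1, -0.18 in mouse 2 and -0.6 in mouse 3. In the fit of the comparison 29 of the 32 lay below 0, with a median of -0.58. Of all 4126 genes brighter than the median gene 2264 lay below 0, with a median of -0.04. Without exposed mouse 2, 14 members were called, all lower, or 17.1% of members beside 7.08% of all genes. They were Pon1 at -3.36, Sult1d1 at -2.14, Cyp2e1 at -2.02, Cyp2f2 at -1.64, Sult1a1 at -1.36, Fmo5 at -1.33, Gsta3 at -1.29, Gstm3 at -1.21, Cyp1a1 at -1.17, Fmo1 at -1.14, Cyp4b1 at -1.09, Aldh2 at -1.08, Gstm2 at -1.02 and Gstm1 at -0.92. Without exposed mouse 3 or either unexposed mouse, 0 members were called by limma. With all 95 arrays in 1 fit the count was 16, or 19.5% of members beside 8.88% of all genes, with 15 lower and Cyp7b1, a sterol hydroxylase, higher by 0.73.

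**Figure D1:**
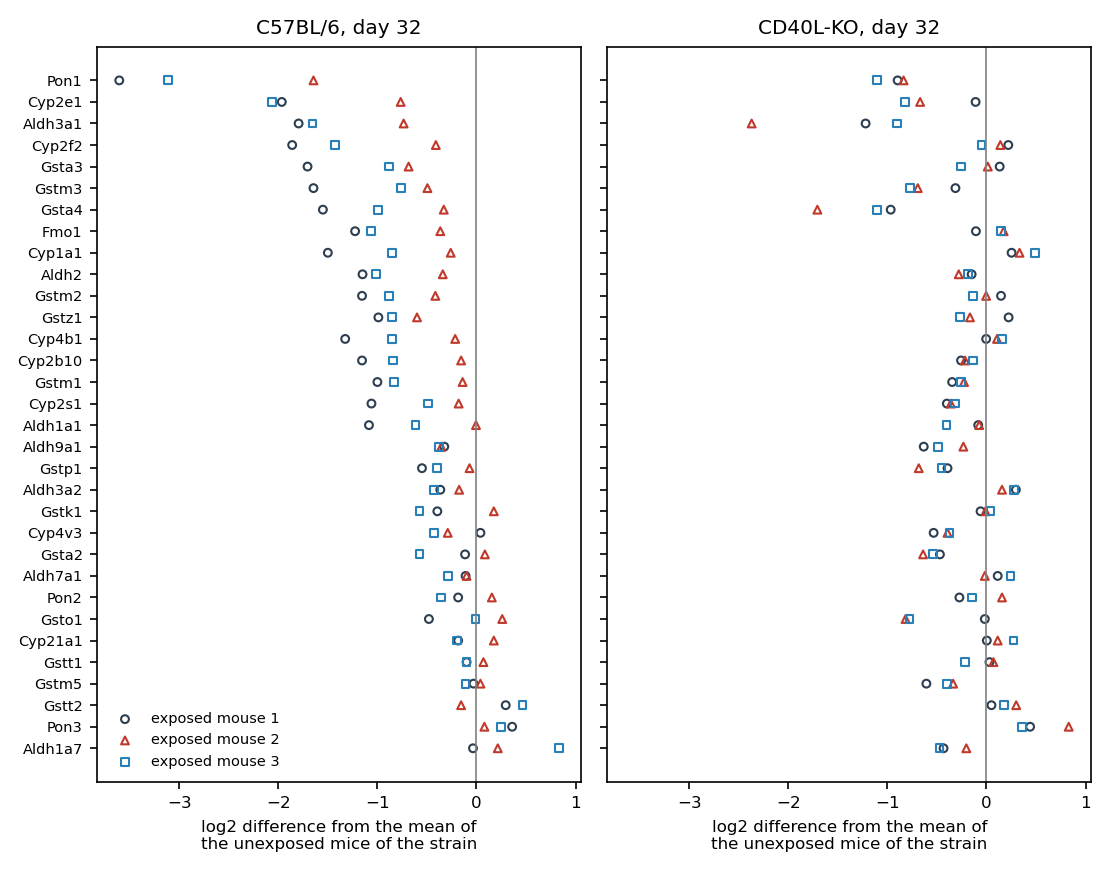
Each row is 1 of the 32 members brighter than the median gene, and each symbol is 1 exposed mouse of day 32, placed by its log2 difference from the mean of the unexposed mice of its strain. In C57BL/6 mice the triangles of mouse 2 lie closest to 0 for most genes, with a median of -0.18 against -1.0 and -0.6, while the CD40L-KO mice lie between -0.11 and -0.26 in the median.

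Markers of the cells that hold these enzymes were recorded in the same mice. The 1 measured club cell marker of 3 listed, Scgb1a1, was 12.57 to 12.65 in unexposed and 12.25 to 12.65 in exposed mice. The mean of 4 alveolar type 2 genes of 7 listed was 10.14 to 10.16 against 9.66 to 10.09, and that of 3 ciliated cell genes of 7 listed was 5.66 to 5.9 against 5.12 to 5.69. Their part in the lower enzyme levels was not tested. No array of either C57BL/6 group of day 32 carried squamous transcripts.

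CD40L-KO mice of day 32 shared the cages of the C57BL/6 mice. Limma called 0 of 82 members and 0.0727% of all genes. At an unadjusted p under 0.05 there were 11 of 82 members and 1149 of 8252 genes. Pon1 was 8.45, 7.89 and 8.7 in unexposed and 7.45, 7.51 and 7.24 in exposed mice. The groups did not overlap, but the difference of -0.94 (SE 0.42, limma adjusted p = 0.352) did not pass. For Pon1 every exposed CD40L-KO mouse lay above the exposed C57BL/6 mice, whose Pon1 level averaged 5.47 ± 1.02 (SD, n = 3). Cyp2f2 was 11.41, 10.97 and 11.43 against 11.49, 11.41 and 11.22, and the groups overlapped. Gsta4, which conjugates lipid aldehydes, was 7.05, 8.38 and 6.52 in unexposed mice and averaged 6.05 ± 0.40 (SD, n = 3) in exposed mice. Here 2 of 3 unexposed and 1 of 3 exposed arrays carried squamous transcripts, and the part of these in the Gsta4 values was not tested within the strain.

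The difference between the strains was itself tested at day 32, and limma called 0 members and 0.17% of all genes. The effect on Pon1 differed by 1.84 (SE 0.62, limma adjusted p = 0.237), that on Cyp2f2 by 1.33 (SE 0.46, adjusted p = 0.249) and that on Fmo5, a flavin monooxygenase, by 1.5 (SE 0.35, adjusted p = 0.117). These intervals are wide, and the fit did not show whether the strains differ. Without C57BL/6 exposed mouse 2, which lay nearest to the unexposed mice, the effects on Cyp2f2, Fmo5 and Pon1 were called, at 1.75, 1.79 and 2.42. The share of all genes called without this mouse is not given here. With each of 11 arrays left out in turn, the count of called members ranged from 0 to 3.

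At day 34, with 10 exposed and 5 unexposed C57BL/6 mice, 14 members were called, 13 lower and 1 higher. In this comparison 8.22% of all genes were called, 2.96% lower and 5.26% higher. The members called lower were thus 15.9% of the 82. By family they were 5 of 15 glutathione transferases, 3 of 10 aldehyde dehydrogenases, 2 of 40 P450 genes, 1 of 2 flavin monooxygenases, 1 of 3 paraoxonases and 1 of 3 glucuronosyltransferases, with 0 of 9 sulfotransferases. The 1 member called higher was Aldh18a1, a proline synthesis enzyme, at 0.44 (SE 0.12, limma adjusted p = 0.025). Its group means of 4.18 and 3.73 lay near the floor.

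Cyp1a1 changed most clearly among the P450 genes. Its levels were 8.34, 7.36, 7.48, 7.1 and 8.02 in the unexposed mice, and 5.77, 6.39 and 7.02 as lowest, median and highest of the 10 exposed mice. Every exposed mouse lay below every unexposed mouse, which held for no other called member. The difference was -1.28 (SE 0.18, limma adjusted p = 1.85e-05). A second Cyp1a1 probe set, near the floor with a mean of 4.19, differed by 0.54 and did not pass (adjusted p = 0.187). The related Cyp1b1 differed by 0.16 (SE 0.21), which did not pass. Cyp2s1, an epithelial P450, was 7.95, 8.16, 8.01, 7.82 and 8.08 against 7.3, 7.56 and 7.96 and fell by 0.42 (SE 0.11, limma adjusted p = 0.0195). P450 genes typical of lung did not pass, with Cyp4b1 at -0.36 (SE 0.14), Cyp2b10 at -0.46 (SE 0.18) and Cyp2f2 at -0.32 (SE 0.15).

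Among the glutathione transferases, Gsta2, Gsta3 and Gsta4 of the alpha class and Gstm1 and Gstm3 of the mu class were called lower at day 34, while Gstm2 differed by 0.10 and was not called. Gsta4 was 8.45, 8.34, 6.61, 7.89 and 6.37 in unexposed mice, against 5.72, 6.23 and 6.94 as lowest, median and highest of the exposed mice. It fell by 1.28 (SE 0.24, limma adjusted p = 0.00067), with 3 unexposed mice above every exposed mouse and 2 within the exposed range. Gsta2 was 7.91, 8.02, 6.8, 7.48 and 6.29 against 5.8, 6.26 and 6.89 and fell by 1.03 (SE 0.20, adjusted p = 0.00119). Gsta2 thus ordered the unexposed mice much as Gsta4 did. Gsta3 fell by 0.60 (SE 0.16, adjusted p = 0.0218), Gstm1 by 0.51 (SE 0.11, adjusted p = 0.003) and Gstm3 by 0.62 (SE 0.18, adjusted p = 0.0297). The probe sets of Gstm1 and Gstm3 carry the suffix for gene families, so transcripts of related mu class genes may add to their values. Gstp1 and Gstt1 differed by 0.16 (SE 0.12) and 0.13 (SE 0.09), and Gsto1, an omega class reductase, by 0.68 (SE 0.23, adjusted p = 0.0579), none of which passed.

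Oxidases and hydrolases outside the P450 family also changed at day 34. Fmo1 was 10.68, 10.41, 10.18, 10.18 and 10.12 against 9.02, 9.78 and 10.15 and fell by 0.58 (SE 0.13, limma adjusted p = 0.00532). Pon1 was 7.17, 7.75, 7.94, 7.49 and 7.85 against 5.8, 6.44 and 7.88 and fell by 1.11 (SE 0.32, adjusted p = 0.0278). Pon1 thus varied widely among exposed mice, with 1 of them at the level of the controls. Aldh2 fell by 0.47 (SE 0.11), and Aldh1a1, which makes retinoic acid from retinal, fell by 0.40 (SE 0.11). The probe set of Aldh2 carries the suffix for transcripts shared by several genes, and a second one differed by -0.08. Ugt2b5, near the floor with means of 3.72 and 4.47, fell by 0.75 (SE 0.21, adjusted p = 0.0244).

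Aldh3a1, an aldehyde dehydrogenase of stratified epithelia, was 9.52, 9.94, 8.44, 9.62 and 7.27 in unexposed mice and 6.52, 6.92 and 9.45 as lowest, median and highest of the exposed mice. It fell by 1.40 (SE 0.44, limma adjusted p = 0.0446). Its values followed the squamous arrays in both groups. They were 8.44 to 9.94 on the 4 unexposed and 9.12 to 9.45 on the 3 exposed arrays with squamous transcripts. Without them, the value was 7.27 on 1 unexposed array and 6.52 to 7.22 on 7 exposed arrays.

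Squamous transcripts were therefore tested as a measure of their own, by comparing the 16 arrays with the 35 others of the same 9 groups; this comparison was chosen after seeing the data. Of the 82 members 16 were called, or 19.5%, which is near the 15.7% of all genes. They were 11 higher, with 6.85% of all genes higher, and 5 lower, with 8.87% of all genes lower. Aldh3a1 was higher by 2.15 (SE 0.13, limma adjusted p = 1.78e-25), Gsta4 by 1.09 (SE 0.14, adjusted p = 2.15e-09), Sult2b1, a cholesterol sulfotransferase of skin, by 0.76 (SE 0.11), Gsto1 by 0.69 (SE 0.12) and Gsta2 by 0.56 (SE 0.09). Cyp2e1, the ethanol-inducible P450, was higher by 0.89 (SE 0.23, adjusted p = 0.00336). Fmo1 was lower by 0.24 (SE 0.07) and Cyp2b10 by 0.29 (SE 0.11). Over all arrays Aldh3a1 ranged from 8.29 to 10.55 on the 16 arrays and from 6.07 to 8.35 on the 79 others. Gsta4 ranged from 6.21 to 8.66 and from 5.06 to 6.99, so it overlapped more.

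**Figure D2:**
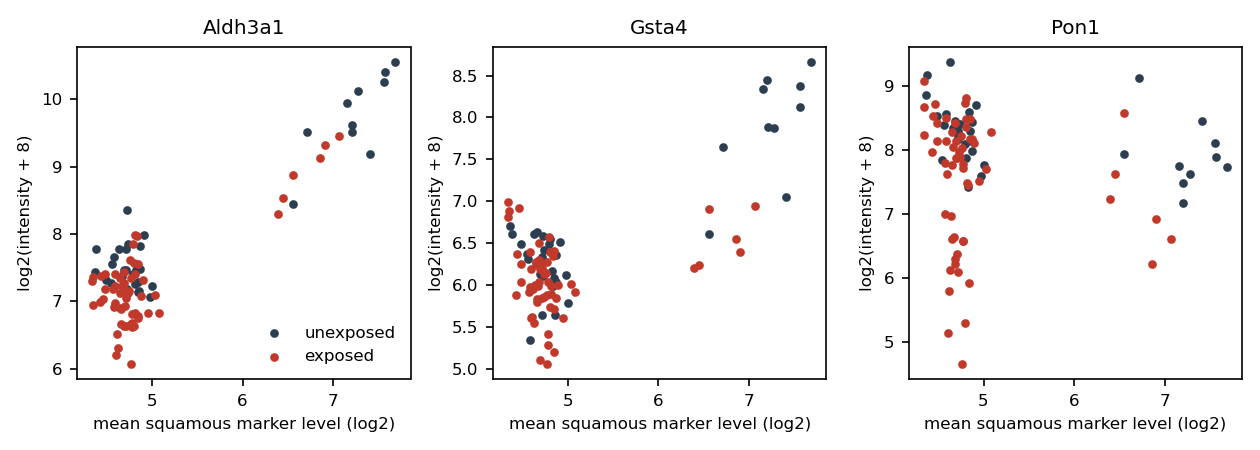
Each point is 1 of 95 arrays, placed by the mean log2 level of 13 squamous epithelium genes and by the level of Aldh3a1, Gsta4 or Pon1, with exposed mice in red. The 16 arrays to the right carry Aldh3a1 levels from 8.29 up and most of the highest Gsta4 levels, whereas the lowest Pon1 levels lie among exposed arrays at the left.

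The day 34 comparison was repeated with other arrays and covariates. With the squamous level as a covariate 8 of the 14 members stayed called, with Cyp1a1 at -1.44, Gsta4 at -0.84, Gsta2 at -0.61 and Aldh2 at -0.45, while Aldh3a1 stood at -0.22 (adjusted p = 0.611). Without arrays of squamous level over 6, which left 1 unexposed array, Cyp1a1 was the 1 member called, at -1.55. Gsta4 stood at -0.28 and Gsta2 at -0.20, whereas Pon1 at -1.34, Cyp2s1 at -0.58 and Gsta3 at -0.56 kept differences of about their former size without being called. When both unexposed groups of this experiment served as controls and no array with squamous transcripts was kept, 6 members were called, all lower. They were Pon1 at -1.46, Cyp2f2 at -0.73, Aldh3a1 at -0.63, Gstm2 at -0.60, Cyp2s1 at -0.47 and Gsta2 at -0.43. Cyp1a1 then stood at -0.49 (limma adjusted p = 0.151) and Gsta4 at -0.04 (adjusted p = 0.917). The pooled setting was added after seeing the data. Its share of all genes called is not given here, so its count of members has no background beside it. The 3' probe set of Gapdh exceeds the 5' one when RNA is degraded, and this log2 difference was 0.27 to 2.13 in unexposed and -0.16 to 1.59 in exposed mice. With it as a covariate Cyp1a1, Gsta4 and Aldh18a1 stayed called, and Pon1 stood at -1.18, Aldh3a1 at -1.33, Cyp2s1 at -0.45 and Aldh2 at -0.40 without being called. Without unexposed mouse 2 the count was 8.

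**Figure D3:**
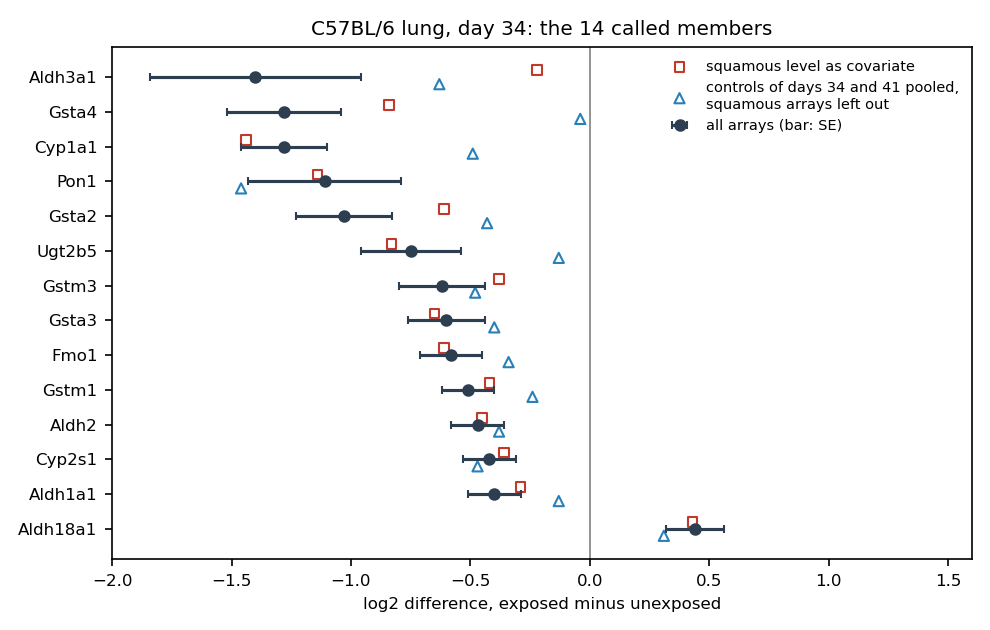
The 14 members called at day 34 are placed by their log2 difference between exposed and unexposed C57BL/6 mice, with filled points and SE bars for all arrays and open symbols for 2 alternatives. Pon1 moves from -1.11 to -1.46 with pooled controls and squamous arrays left out, while Gsta4 moves from -1.28 to -0.04 and Cyp1a1 from -1.28 to -0.49.

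At day 41, with 10 exposed and 5 unexposed mice, limma called 0 members and 0.388% of all genes. At an unadjusted p under 0.05 there were 13 of 82 members and 610 of 8252 genes. Pon1 was 7.76, 7.6, 7.98, 8.45 and 8.17 in unexposed mice, against 5.29, 6.6 and 7.89 as lowest, median and highest of the exposed mice. The difference of -1.26 (SE 0.32, adjusted p = 0.0772) was as large as at day 34 but did not pass, and the exposed mice again spread widely. It was called with all arrays in 1 fit (adjusted p = 0.000776), as was Gstm2, a mu class transferase, at -0.44. Without exposed mouse 6 or 7, the count of called members was 1. Of the 32 brighter members 29 lay below 0, with a median of -0.24. Of all 4126 genes of such brightness 2421 lay below 0, with a median of -0.03. No array of day 41 carried squamous transcripts.

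Cyp1a1 went the other way at day 41. It was 7.01, 6.34, 6.34, 7.15 and 6.89 in unexposed mice and 6.98, 7.18 and 7.54 as lowest, median and highest of the exposed mice. The difference of 0.46 (SE 0.18, limma adjusted p = 0.461) did not pass. The change of the exposure effect between days 34 and 41 was 1.74 (SE 0.26, adjusted p = 0.000625), the 1 member called, where 0.109% of all genes were called and 0.0485% were higher. Both groups moved between the days, since exposed means rose from 6.38 to 7.21 and unexposed means went from 7.66 to 6.74. The second probe set of Cyp1a1, near the floor, gave -0.55 (adjusted p = 0.587).

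The unexposed mice of days 34 and 41 were compared directly, and 3 members were called, or 3.66%, where 2.44% of all genes were. Of these 1 was higher and 2 were lower at day 41, with 1.43% and 1.01% of all genes. Gsta4 was lower at day 41 by a difference of -1.45 (SE 0.28, limma adjusted p = 0.0131), with 5.79 to 6.34 against 6.37 to 8.45 and no overlap. Cyp1a1 differed by -0.91 (SE 0.21, adjusted p = 0.0263) and Gstm2 by 0.71 (SE 0.18, adjusted p = 0.0345). These controls were thus apart in 2 of the members called lower at day 34. With the squamous level as a covariate, or without arrays of squamous level over 6, limma called 0 of the 3. Cyp1a1 then stood at -1.15 and -1.28, Gsta4 at -0.81 and -0.29, and Gstm2 at 0.64 and 0.34.

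Earlier in exposure no member passed. Limma called 0 members at days 7, 14 and 21, where 0%, 0.267% and 0% of all genes were called. At an unadjusted p under 0.05 there were 8, 7 and 7 of 82 members, beside 545, 655 and 959 of 8252 genes. Of the 32 brighter members 18, 28 and 17 lay below 0 at days 7, 14 and 21. Of all 4126 genes of such brightness 1953, 2001 and 1583 did. The median of the 32 at day 14 was -0.11, against 0.00 for all genes of such brightness. At day 14 the values nearest to a call included Gsto1 at -0.76 (SE 0.23, adjusted p = 0.216) and Gstp1 at -0.28 (SE 0.12). At day 21 Gsta4 differed by -1.11 (SE 0.39, adjusted p = 0.319), with 2 of 5 unexposed and 1 of 6 exposed arrays carrying squamous transcripts. Pon1 differed by -0.15 (SE 0.17) at day 7, by -0.20 (SE 0.15) at day 14 and by 0.04 (SE 0.17) at day 21. Its exposed mice spanned 7.77 to 8.59, 7.79 to 8.29 and 7.62 to 8.49 on these days, within a unit of the controls. Cyp1a1 varied strongly among unexposed mice of this experiment, from 6.77 to 9.09 at day 7, 6.99 to 9.71 at day 14 and 6.74 to 9.1 at day 21. Its exposed mice of the same days spanned 7.07 to 8.47, inside that range.

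**Figure D4:**
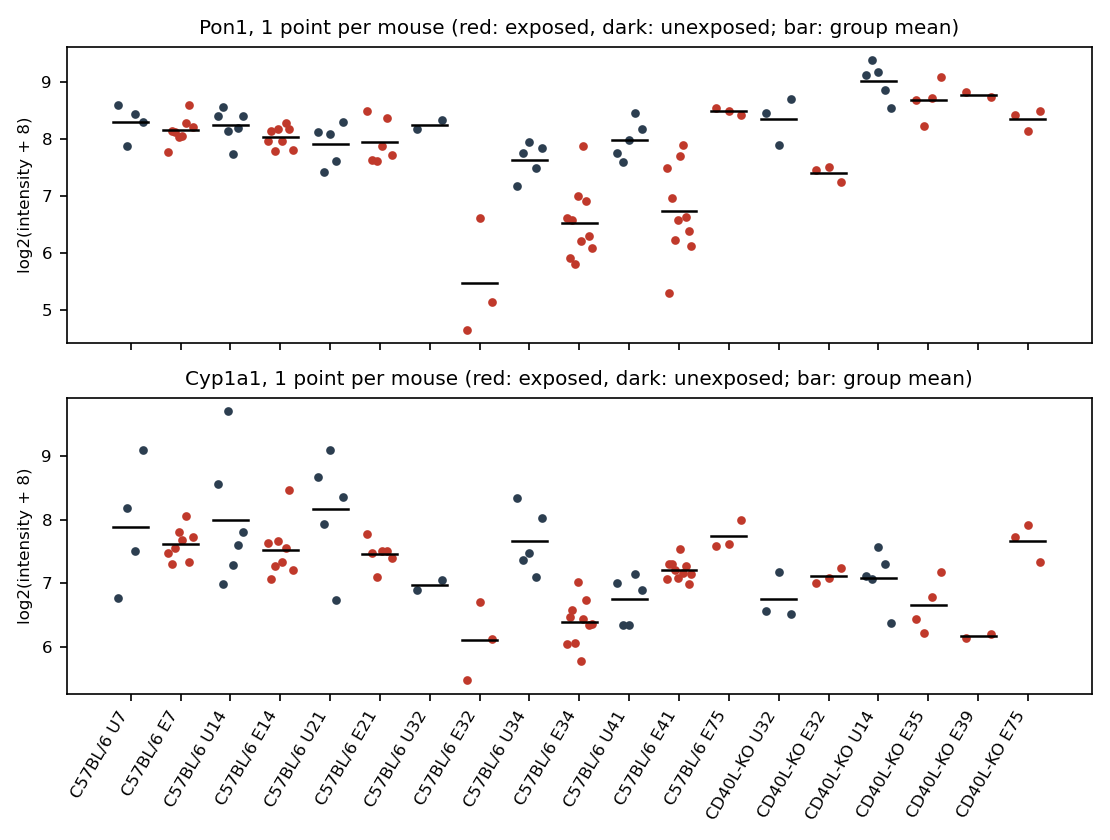
Each point is the level of Pon1 or Cyp1a1 in 1 mouse, exposed (E) in red and unexposed (U) in dark, with the day after the letter and the group mean as a bar. Pon1 is low in exposed C57BL/6 mice of days 32, 34 and 41, with means of 5.47, 6.53 and 6.73, and Cyp1a1 of unexposed mice ranges widely.

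CD40L-KO mice exposed for 35 days were compared with the 5 unexposed CD40L-KO mice labelled day 14. Limma called 0 members and 0% of all genes, with 4 members and 364 genes at an unadjusted p under 0.05. Pon1 was 9.13, 9.38, 9.17, 8.87 and 8.54 in unexposed and 8.68, 8.23, 8.72 and 9.09 in exposed mice, a difference of -0.34 (SE 0.30). No exposed array and 1 of 5 unexposed arrays carried squamous transcripts. Cyp1a1 differed by -0.43 (SE 0.27), Gsta4 by 0.08 (SE 0.34), Fmo1 by 0.06 (SE 0.17) and Aldh2 by 0.03 (SE 0.13). Cyp4v3, a fatty acid hydroxylase, was 8.19, 8.66, 8.24, 8.63 and 7.92 against 9.04, 9.2, 8.98 and 9.34, a difference of 0.81 (SE 0.27) that did not pass (adjusted p = 0.741). The effect at day 35 in CD40L-KO mice minus that at day 34 in C57BL/6 mice gave 0 called members and 0.582% of all genes called. For Cyp1a1 it was 0.84 (SE 0.35, adjusted p = 0.359) and for Gsta4 1.36 (SE 0.44, adjusted p = 0.189).

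**Figure D5:**
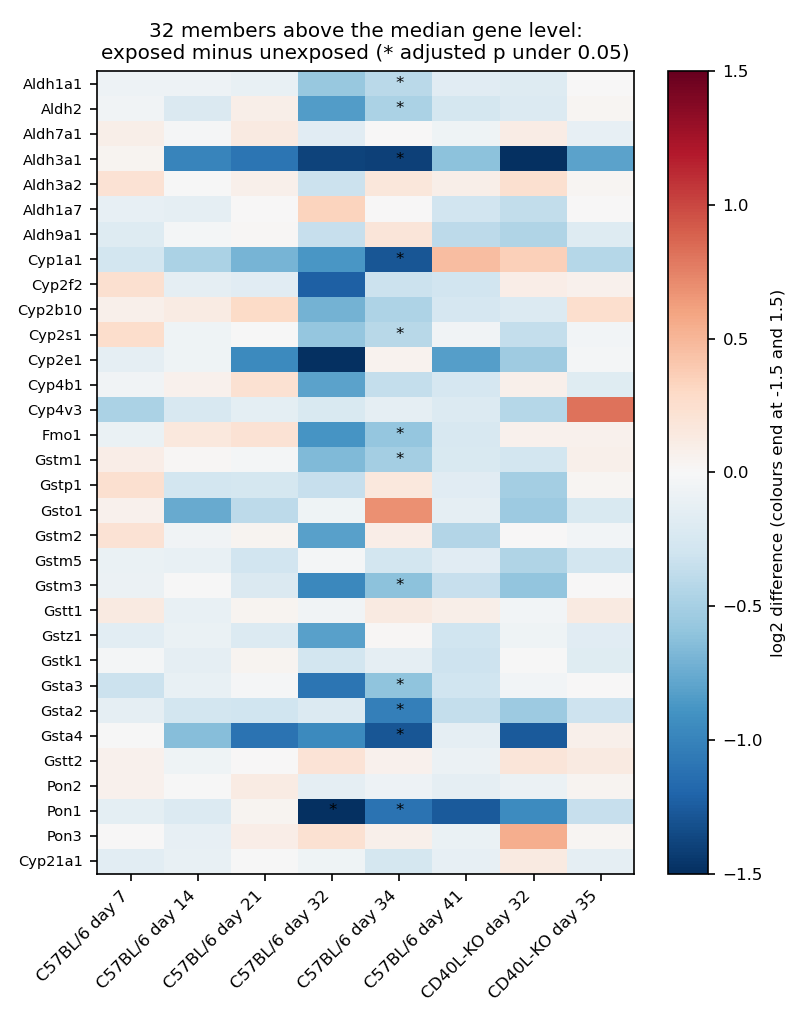
Rows are the 32 members brighter than the median gene, grouped by family, columns are the 8 comparisons of exposed with unexposed mice, and colour is the log2 difference, with stars for calls. The columns of C57BL/6 days 32 and 34 hold all the stars, 1 and 12, and the column of CD40L-KO day 35 is mostly pale.

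The 9 arrays assigned to experiment 4 stood apart from the rest in several members, whatever the exposure. Aldh1a1 was 12.24 to 12.5 there and 10.43 to 12.17 on all other arrays, Cyp2f2 was 11.68 to 12.07 against 9.56 to 11.56, and Aldh2 was 10.6 to 10.87 against 8.87 to 10.36. With Aldh3a2, a fatty aldehyde dehydrogenase, 4 of 82 members lay wholly above all other arrays, as did 2.01% of all genes. Gstm5 lay wholly below, at 7.35 to 8.04 against 8.25 to 9.53, as did 2.18% of all genes. Y-linked expression was not confined to these 9 arrays. Eif2s3y exceeded Xist on every array of day 39 and day 75 too, and at day 75 in both strains. Those arrays counted among the others, so their Aldh1a1 was 12.17 or lower and their Gstm5 8.25 or higher. All arrays of experiment 4 came from CD40L-KO mice, and the cause of their separation was not tested.

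Day 75 was compared with the unexposed mice of day 32 of each strain, for want of controls of its own. In C57BL/6 mice limma called 0 members and 1.47% of all genes. Pon1 was 8.54, 8.49 and 8.43 there, at the level of the unexposed mice of day 32. In CD40L-KO mice 3 members were called, or 3.66%, where 8.43% of all genes were. Of all genes 5.57% were higher and 2.86% lower. Cyp1a1 was higher by 0.91 (SE 0.26, adjusted p = 0.0387), with 7.73, 7.92 and 7.33 against 6.56, 7.17 and 6.51. Aldh3a1 fell by 1.86 (SE 0.49) and Gstm5 by 0.59 (SE 0.17), with squamous transcripts on 2 of the 3 control arrays. With the squamous level as a covariate, or without arrays of level over 6, limma called 0 members. Cyp1a1 then stood at 1.18 and 1.15, Aldh3a1 at -0.43 and -0.65 and Gstm5 at -0.30 and -0.35. Leaving out any 1 exposed mouse gave 0 calls and leaving out unexposed mouse 1 gave 1. Day, experiment and Y-linked expression cannot be told apart in these comparisons. The 2 CD40L-KO mice of day 39 had Pon1 at 8.82 and 8.74 and Cyp1a1 at 6.13 and 6.2.

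Of a list of regulators and partner enzymes of these pathways, 48 genes were measured. At day 34, 1 was called higher and 3 lower, or 8.33% beside 8.22% of all genes. The carboxylesterases Ces1d and Ces1g fell by 0.68 (SE 0.10, limma adjusted p = 3.22e-05) and 0.79 (SE 0.21), the aldehyde oxidase Aox1 fell by 0.76 (SE 0.17) and the acetyltransferase Nat2 was higher by 0.40 (SE 0.12). At day 32 in C57BL/6 mice Ces1d fell by 0.98 (SE 0.19, adjusted p = 0.0353). It was the 1 called gene of 48, or 2.08% beside 1.65% of all genes. At day 41 limma called 0, and Gclc, which makes the first intermediate of glutathione, stood nearest at 0.54 (SE 0.14, adjusted p = 0.0942). Limma called 0 in either CD40L-KO comparison of days 32 and 35, with Abcc1 at 0.71 (adjusted p = 0.134) and Rxrg at 0.44 (adjusted p = 0.801) nearest. In CD40L-KO mice of day 75, 7 were called, or 14.6% beside 8.43% of all genes, with squamous transcripts on 2 of 3 control arrays. Of these 4 were higher, among them Gclc at 1.17 (SE 0.20) and the receptor gene Ahr at 0.71 (SE 0.16). Another 3 were lower, among them the epoxide hydrolase Ephx1, which fell by 0.68 (SE 0.20). In C57BL/6 mice of day 75, 2 were called, or 4.17% beside 1.47% of all genes. These were Papss1 at -0.52 and Mgst1 at 0.61, which in CD40L-KO mice were called at -0.45 and 0.43. In both strains Eif2s3y exceeded Xist on every day 75 array and on 0 of the day 32 controls. Exposure, day, experiment and Y-linked expression thus cannot be told apart in these day 75 values.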

How the data were processed

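Per the labels, biotin-labelled copies of total lung RNA were hybridised to Affymetrix arrays. The authors deposited linear intensities, 1 for each probe set of an array. How probes were summarised is not given in the sources used. Array means, with the outer 2% of values on either side trimmed, were 99.99 to 100, so the intensities had been scaled. The number of arrays limits the precision.

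Deposited intensities were used as log2(intensity + 8), without further scaling. The platform annotation gave 1 gene for 10855 of 12487 probe sets, several for 396 and none for 1236; it can be old. All 82 member symbols were current in the RefSeq gene table. One probe set with a missing value was left out, and of several probe sets for 1 of the 8252 genes the brightest was kept. Another 8 probe sets shared by several genes, at least 1 of a member family, were left out. Probe set brightness is no measure of abundance between genes.

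Groups came from the labels. limma 3.58.1 (R 4.3.3) fitted the 14 comparisons by lmFit and eBayes, with Benjamini-Hochberg adjustment over all genes and a threshold of 0.05. Each fit held the groups of 1 experiment, except that day 35 was fitted together with day 34, and day 75 with days 32 and 39. Alternatives were offsets of 2 and 32, no genes dimmer than the median, quantile normalization, all arrays in 1 fit, every probe set, the replicate number as a block, the squamous level and the Gapdh probe set difference as covariates, arrays of squamous level over 7 left out, and each array left out in turn. A limit of 6 and pooled controls were added after seeing the data. The members, lists and named genes were chosen with earlier results of these data known. Named genes were called members, up to 12 a comparison by size, the 2 brightest members of each family and a list of well-known members. Of the regulators, up to 6 called genes a comparison were named, or those of smallest p.

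On simulated data, 89 and 99 of 100 genes changed by 1 and 2 were found for day 34, with 10 false calls among 8052 genes, and 51 and 85 for day 32 in C57BL/6 mice, with 8. Simulated noise was drawn independently for each gene and array, with no shift shared by the genes of an array. These counts are therefore no error rates of the real comparisons. Figures were drawn with matplotlib 3.10.9.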

Additional observations from a re-analysis of the deposited data

Results flagged for a closer look

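The exposure effect on Cyp1a1 differed between days 34 and 41 of the second experiment, by 1.74 (SE 0.26, limma adjusted p = 0.000625). It was called in 11 of 11 alternative settings and with each of 30 arrays left out, with values from 1.46 to 2.02. At day 34 all 10 exposed mice lay below every unexposed mouse, and at day 41 the exposed mice lay at or above the upper part of the unexposed range. The unexposed mean went from 7.66 to 6.74 between these days and the exposed mean from 6.38 to 7.21. Part of the change thus lay in the controls. With pooled controls and squamous arrays left out, the day 34 difference was -0.49 (limma adjusted p = 0.151). A second, dim probe set of Cyp1a1 gave a change of the opposite sign. Squamous transcripts were on 4 of 5 unexposed arrays of day 34 and on 0 of day 41. Without such arrays the value was 2.02, which rests on 1 unexposed array of day 34. Among 33 sets of a called member and a group of 4 to 10 mice, 0 held a mouse far from the others by Dixon's criterion, where chance gives about 1.6.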

How the results depend on the processing

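At day 34 the 14 calls were 1 without arrays of squamous level over 7 or over 6, 9 (8 shared) with the squamous level and 3 with the Gapdh difference as covariate, and 6 (4 shared) with controls of days 34 and 41 pooled and squamous level over 6 left out together. Without squamous level over 6 Aldh1a1 turned to 0.08 (adjusted p = 0.9), with 1 unexposed array assumed to vary like the others. At day 32 in C57BL/6 mice the 1 call was 2 with offset 32, 6 without dim genes, 16 with all arrays in 1 fit and 0 with the replicate block or without arrays of squamous level over 7 or over 6. These were CD40L-KO arrays, so the latter change left the C57BL/6 arrays as they were and only shortened the shared fit. All arrays in 1 fit gave 2 calls at day 41, for the change of effect to day 41 and for CD40L-KO day 35 minus C57BL/6 day 34, and 6 for CD40L-KO minus C57BL/6 at day 32 and for unexposed mice of day 41 minus day 34. The last was 0 without arrays of squamous level over 7 or over 6 and with either covariate. CD40L-KO day 75 had 5 calls without dim genes, 1 with quantile normalization and 0 in the 3 squamous settings. Calls over all genes also changed with the setting at days 32 and 34, and for most settings their share is not given here. The cause of these changes was not tested.

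The replicate block gave 12 calls at day 34 (12 shared), 1 at day 41, where Pon1 stood at -1.45 (limma adjusted p = 0.0142), and 0 at day 32; it moved no other count by over 1.5 times. The labels give replicate numbers without saying that they pair the mice. Same-numbered pairs correlated above 0.1 in 1 of 5 pairs at day 34 and 0 of 5 at day 41. In experiment 3 they did so in 1 of 4 at day 7, 3 of 6 at day 14 and 2 of 5 at day 21. Correlations there ran from -0.14 to 0.51 at day 7 and from -0.42 to 0.30 at day 21. So few pairs cannot decide whether the numbers pair the mice.

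With 1 array left out, calls ranged from 8 to 19 at day 34, 0 to 1 at day 41, 1 to 2 for the change of effect, 1 to 7 for the unexposed mice, 0 to 14 at day 32 in C57BL/6 mice, 0 to 3 for the strain difference at day 32, 0 to 1 for CD40L-KO day 35 minus C57BL/6 day 34 and 0 to 4 for CD40L-KO day 75. The other 6 comparisons stayed at 0. The share of all genes called is not given for most of these fits, so the counts of members have no background beside them. In C57BL/6 mice of day 32, all genes called went from 136 to 584 without exposed mouse 2, and to 733 with all arrays in 1 fit. The count of 2 for the change of effect arose without unexposed day 34 mouse 5, and that of 1 for day 35 minus day 34 without exposed day 34 mouse 2 or unexposed day 34 mouse 5. The unexposed count was 7 without day 34 mouse 5 and 1 without day 34 mouse 1 or day 41 mouse 2 or 3. For all genes, the day 34 count of 678 was 184 with the Gapdh difference, 322 with the squamous level and 17 without squamous level over 6. Of 22 pairs of a called member and a comparison, 1 reversed under an alternative. Over these pairs the call was kept in 164 of 254 alternative settings and in 242 of 293 fits without 1 array. Aldh3a1 at day 34 kept its call in 5 of 15 such fits. Cyp1a1 and Aldh3a1 of CD40L-KO day 75 each kept theirs in 1 of 6.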
